A study of Mus musculus with 22 samples.

Results

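Control mouse hearts at E13.5 were sequenced either whole or as isolated ventricles, and the whole-heart libraries are set here against the ventricle libraries to ask which genes of the atria, valves, outflow tract and conduction tissue were higher where the rest of the heart was present. Over all genes tested, 17.7% passed the test as higher in whole hearts and 18.2% as lower. Higher genes were 14 of 16 for the pacemaker tissue, 9 of 12 for the atrioventricular canal and 6 of 10 for the outflow tract. Above the left and the right ventricle separately were 2, 0 and 2 of them, against 9.55% of all genes. These lists share members, so their counts are not separate results. All gene lists were chosen with earlier results of these data known, so counts on them are a description. For the cushion mesenchyme 15 of 28 were higher, and for smooth muscle and the arterial wall 10 of 17, where 4 were lower. Elastin (Eln) was at 650 to 1171 CPM (read counts scaled to library size) in 3 whole hearts and at 23.7 to 57.1 CPM in 7 of 8 ventricles. Of the ventricular genes 8 of 13 were lower, and of the sarcomere genes 12 of 18. Genes of atrial cardiomyocytes showed no common direction: 3 of 18 were higher and 4 were lower, near the shares over all genes. The atrial calcium pump regulator Sln stayed under 3 CPM in every control library. Its log2 fold change was 2.0, which did not pass the test. It was 3.49, and passed, without whole heart 1 and right ventricle 2. The right ventricle library 2 carried outflow and cushion genes at or near whole-heart levels. Part of the counts and of the single-gene results is therefore also given without it and whole heart 1.

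The comparison used 11 of the 22 libraries of the series: 3 control whole hearts, 4 control left ventricles (LV) and 4 control right ventricles (RV), chosen by their labels. All come from C57BL/6 embryos at E13.5, which is midgestation. The controls are littermates of Prdm16 conditional knockout embryos, and their genetic manipulation is labelled Mock; the alleles they carry and the Cre driver are not given in the sources used here. The other 11 libraries, from Prdm16 conditional knockouts (cKO) in the same tissues, serve as a second set of whole hearts and ventricles. The labels do not say whether each library is 1 embryo or a pool, nor whether the ventricles and whole hearts come from the same litters. Whether an LV and an RV library came from 1 heart is not known here either, and the tests treat all libraries as independent. A p-value here therefore measures only the spread between these libraries.

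The heart of the midgestation embryo is made of chambers and of the tissue that joins them. Atrial and ventricular cardiomyocytes differ in their myosin light chains, channels and transcription factors, while the sinus node and the atrioventricular canal keep a slowly conducting, pacemaker-like state under the T-box repressors Tbx3 and Tbx2. Endocardial cells of the canal and outflow tract turn into cushion mesenchyme, the source of the valves and septa, and second heart field and neural crest cells build the outflow tract and the smooth muscle of the great arteries. In bulk tissue a lower level of a gene can come from fewer cells of a type or from less of its RNA per cell, and these cannot be told apart.

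Whole-heart libraries were deeper than ventricle libraries without overlap, at 38590751 to 54152563 against 14508722 to 22830716 reads assigned to genes, so depth and tissue cannot be told apart. Thinned to a common depth, whole heart 1 had 18963 genes detected against 22505 to 23229 in the other 10 libraries, and 584 tested genes were at 0 in it against 95 and 94 in whole hearts 2 and 3. Mitochondrially encoded RNA took 4.56% to 5.79% of reads in whole hearts and 6.15% to 7.19% in ventricles. Ribosomal protein genes took 2.22% to 2.59% and 2.83% to 3.17%. Both shares had a 2-sided exact permutation p of 0.01212 (n = 3 and 8), the smallest this design allows. Levels below are CPM after scaling by trimmed mean of M values (TMM), and differences are log2 fold changes of whole heart over the mean of LV and RV, each with its standard error (SE) and a Benjamini-Hochberg adjusted p from edgeR's quasi-likelihood test, called under 0.05.

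Of 17003 genes tested, 3006 (17.7%) were higher in whole hearts and 3091 (18.2%) lower. Against each ventricle separately, 1624 genes (9.55%) were above both LV and RV and 1735 (10.2%) below both. Without whole heart 1 and right ventricle 2 the counts were 3941 (22.8%) and 3874 (22.4%) of 17267 genes, with 14.6% above both. In CPM, 10.9% of genes had all 3 whole hearts above all 8 ventricles and 11.8% had them below. The counts for gene lists below are to be read against these shares. They remain a description, since the lists were chosen with earlier results of these data known.

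**Figure D1:**
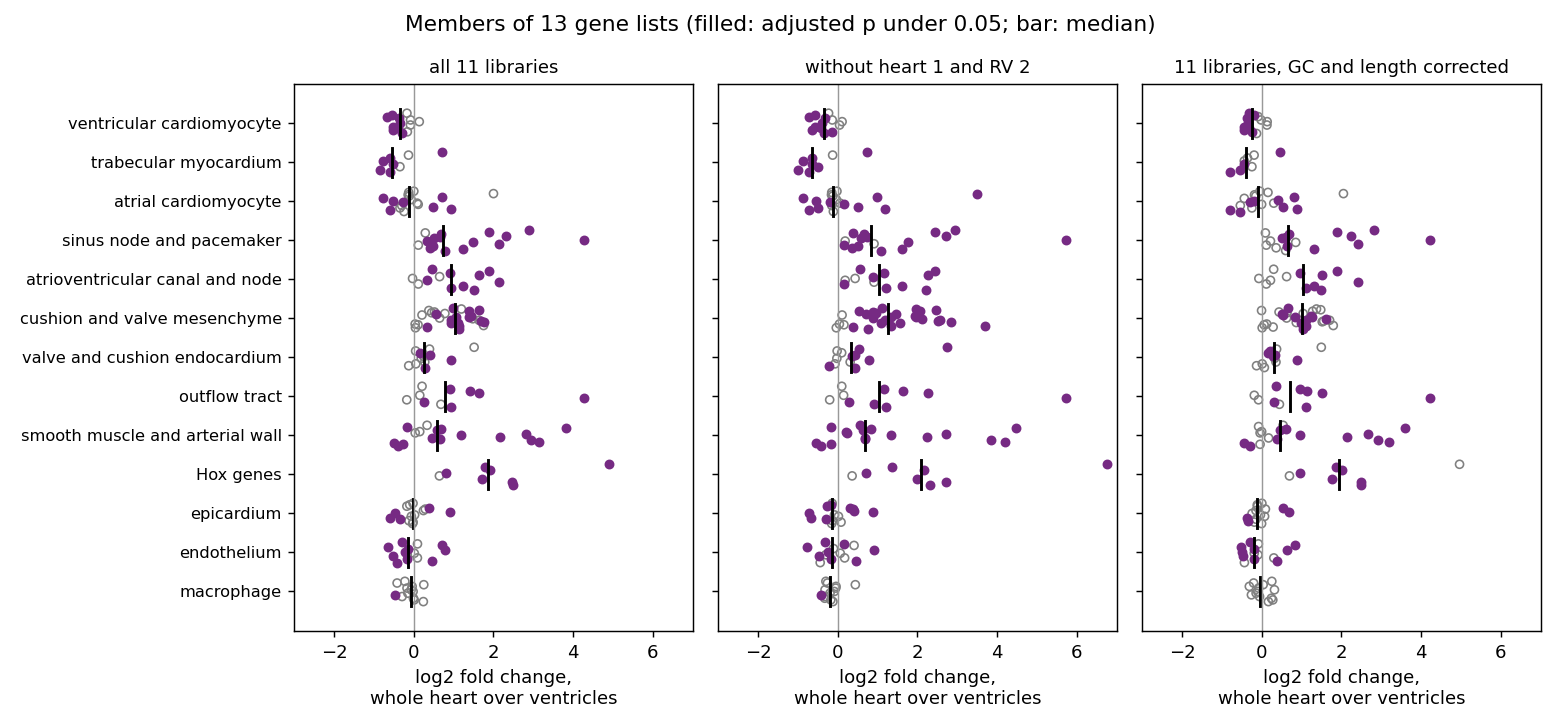
Log2 fold change of whole heart over ventricles for the tested members of 13 gene lists, with all 11 control libraries, without whole heart 1 and right ventricle 2, and after correction for GC content and transcript length. Filled points passed an adjusted p of 0.05, bars are list medians; the cushion list median is 1.02, 1.27 and 1.01 in the panels from left to right, and the atrial list median is -0.12, -0.12 and -0.10.

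The atrial list held 18 genes, all tested, with 3 higher and 4 lower and a median of -0.12 against -0.0090 over all genes. The lower genes were Nppa, Bmp10, Myl4 and Myh6. Nppa, Bmp10 and Gja5 are also on the trabecular list, so the atrial list is not made of genes confined to the atria. Counts on the atrial list moved with single libraries: 1 gene was higher without whole heart 2, and likewise without whole heart 3. Sln, which encodes sarcolipin, an inhibitor of the sarcoplasmic calcium pump that is characteristic of atrial muscle, stood at 1.6, 2.93 and 2.04 CPM in whole hearts 1 to 3. In the ventricles it ran from 0 to 1.84 CPM with a median of 0.230. The highest ventricle, left ventricle 4, lay above whole heart 1, so the groups overlapped. The difference was 2.0 (SE 0.745, adjusted p = 0.0538). Without whole heart 1 and right ventricle 2 it was 3.49 (adjusted p = 0.00122), and it passed on leaving out whole heart 1, left ventricle 4 or right ventricle 2 alone, with adjusted p from 0.00180 to 0.168 over all 11 libraries left out in turn.

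Myl7, the regulatory myosin light chain of the atrium, averaged 1331 TPM in whole hearts, a scale that takes transcript length into account, against 3.02 TPM for Sln. In CPM it stood at 389, 358 and 388 CPM in whole hearts, at 291 to 397 in LV and at 421 to 563 in RV. Whole hearts lay within the span of the ventricles, and the difference was -0.07 (SE 0.10, adjusted p = 0.621). Corrected for GC content and length it was 0.41 (adjusted p = 0.0161), so its direction depends on that step. The atrial essential light chain gene Myl4, also present in embryonic ventricle, was at 1353, 1220 and 1369 CPM in whole hearts and from 1517 to 2228 (median 1843) in ventricles. Each whole heart lay below each ventricle, by -0.51 (SE 0.0613, adjusted p = 9.16e-05), or -0.20 (adjusted p = 0.0148) after the correction.

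Nr2f2, an orphan nuclear receptor that sets atrial identity, was at 24.8, 26.1 and 23.8 CPM in whole hearts and from 22.7 to 33.0 in ventricles, a difference of -0.12 (adjusted p = 0.313). Its paralogue Nr2f1, chosen after its values were seen, was at 4.24, 6.73 and 7.20 CPM against 2.09 to 6.96 and differed by 0.71 (SE 0.240, adjusted p = 0.0355). That call was lost on leaving out any of 7 libraries, with adjusted p up to 0.146. The secreted protein gene Dkk3, also chosen after its values were seen, was at 110, 96.6 and 103 CPM and differed by 0.94 (adjusted p = 0.0192), with right ventricle 2 at 113 and the other 7 ventricles at 35.9 to 58.9. It missed the threshold without whole heart 1 or 3, with adjusted p up to 0.0524. The atrial potassium channel gene Kcna5 was higher by 0.49 (SE 0.129, adjusted p = 0.0110), at 7.30 to 9.87 CPM against 4.55 to 7.42, and its adjusted p was 0.0669 without whole heart 2. The alpha-myosin heavy chain gene Myh6 and the cardiac growth factor gene Bmp10 were lower, by -0.27 (adjusted p = 0.0113, or 0.0647 without whole heart 1) and -0.59 (adjusted p = 0.0131, or 0.0700 without whole heart 2).

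Nppa encodes atrial natriuretic peptide, which in the embryo is made by atrial and by trabecular ventricular cardiomyocytes. It stood at 1316, 1040 and 1328 CPM in whole hearts, at 2610 to 3468 in LV and at 956 to 1938 in RV. All LV libraries were above all whole hearts, while RV libraries overlapped them. The fold change was -0.77 (SE 0.181, adjusted p = 0.00642) over the mean of the ventricles, -1.31 (adjusted p = 0.000664) over LV and -0.22 (adjusted p = 0.427) over RV. Corrected for GC content and length, the first of these was -0.44 (adjusted p = 0.0695).

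The promoters of Nppa and Myl7 are shown because these atrial genes, abundant in the ventricle libraries too, were not called higher in whole hearts before correction. The stretches are the 250 bases before each start site from the RefSeq table for GRCm38.p6, chr4:148000472-148000721 on the plus strand and chr11:5898783-5899032 on the minus strand, with motif matches in capitals. The Nppa gene itself spans chr4:148000722-148002079 and Myl7 chr11:5896637-5898782 in the GENCODE M21 annotation.
Nppa: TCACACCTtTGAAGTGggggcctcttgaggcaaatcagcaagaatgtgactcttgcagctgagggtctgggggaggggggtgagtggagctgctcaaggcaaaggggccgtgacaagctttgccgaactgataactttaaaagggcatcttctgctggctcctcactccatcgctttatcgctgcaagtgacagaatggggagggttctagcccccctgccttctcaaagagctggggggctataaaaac
Myl7: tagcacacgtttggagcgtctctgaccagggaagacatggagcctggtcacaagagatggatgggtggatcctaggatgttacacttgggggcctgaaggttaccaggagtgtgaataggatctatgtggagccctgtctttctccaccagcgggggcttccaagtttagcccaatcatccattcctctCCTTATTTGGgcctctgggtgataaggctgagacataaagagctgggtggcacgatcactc
Both strands were searched for the T-box letters TCACACCT, the NKX letters TNAAGTG and the CArG box. In Nppa the T-box letters begin at base -250 and an NKX match at base -241, and they do not overlap. Myl7 holds a CArG box at base -61 and none of the other letters. Of 32851 mouse promoter windows of this length, 1.12% hold the T-box letters, 10.1% the NKX letters and 1.47% a CArG box. A match is a description of the sequence only.

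In the list of 13 ventricular cardiomyocyte genes, 8 were lower and the others were not called, with a median of -0.34 and 5 below both LV and RV. Myl2, the ventricular regulatory light chain, stood at 3463, 3347 and 3404 CPM in whole hearts and at 4451 to 6419 (median 5488) in ventricles. The groups did not overlap, and right ventricle 2 was the lowest ventricle. Myl2 fell by 0.68 on the log2 scale (SE 0.0891, adjusted p = 0.000158), but the corrected value was -0.09 (adjusted p = 0.271). In mean TPM, which takes transcript length into account, Myl2 was at 12144 in whole hearts, 27649 in LV and 28528 in RV. The size of its difference depends on these steps, and the cause was not tested. Myl3 was at 1592, 1563 and 1536 CPM against 1938 to 2475, and differed by -0.54 (adjusted p = 0.000128), or -0.21 (adjusted p = 0.0222) corrected.

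Irx4, a transcription factor confined to ventricular muscle in the early heart, was at 65.2, 64.8 and 69.5 CPM against 73.7 to 101. It fell by 0.40 (SE 0.0768, adjusted p = 0.00181) and by 0.31 (adjusted p = 0.0236) after correction. Beta-myosin (Myh7) differed by -0.37 (adjusted p = 0.000809), and the corrected value was the same. Hey2, a repressor of atrial genes in compact ventricle, was at 106 to 118 CPM against 114 to 142 and differed by -0.16 (adjusted p = 0.0527). It passed without right ventricle 2 (adjusted p = 0.00207) and without whole heart 2 (0.0475). Prdm16 itself was at 43.3, 42.6 and 35.4 CPM against 37.9 to 57.1, a difference of -0.17 (adjusted p = 0.123). Over LV alone it was -0.35 (adjusted p = 0.0143). Both passed once corrected, Hey2 at -0.25 (adjusted p = 0.00988) and Prdm16 at -0.31 (adjusted p = 0.0155).

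Trabecular genes, 8 in all, gave 5 lower and 1 higher with a median of -0.55. After correction 3 were lower, and without whole heart 2 there were 2. The transcriptional coactivator gene Cited1 was at 231, 158 and 221 CPM in whole hearts, 393 to 488 in LV and 233 to 336 in RV, with a difference of -0.85 (adjusted p = 0.000555). Sphkap, an anchoring protein for protein kinase A, went the other way, at 62.5, 61 and 72.7 CPM against 32.5 to 49.7, a difference of 0.71 (adjusted p = 8.13e-06). Of 18 sarcomere genes 12 were lower and 2 higher, with a median of -0.38 and 9 below both ventricles. After correction 9 were lower and 2 higher, with a median of -0.23 and 5 below both. The slow skeletal troponin I gene Tnni1, the fetal cardiac isoform, stood at 1167, 1158 and 1153 CPM against 1772 to 2181 and differed by -0.75 (SE 0.0552, adjusted p = 2.81e-06). The giant sarcomere spring titin (Ttn), whose transcript is among the longest in the genome, was at 5686, 5837 and 6156 CPM against 2713 to 3751, 0.86 higher (SE 0.0469, adjusted p = 3.10e-07). Correction for GC content and length left -0.47 for Tnni1 and 0.35 for Ttn. The correction capped the longest transcript lengths, so it may cover only part of the length of Ttn.

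Some genes that differ between LV and RV lay between them in whole hearts, while others, such as Myl4 and Sphkap, lay outside both. Tbx5, a T-box activator of the left ventricle and atria, was at 50.7, 52.7 and 55.5 CPM in whole hearts, 89.5 to 96.5 in LV and 22.5 to 37.5 in RV. Connexin 40 (Gja5) was at 169, 146 and 143 CPM, between LV at 381 to 460 and RV at 55.5 to 115. Hand1, a left ventricular regulator, was at 27.3, 19.3 and 26.6 CPM, between LV at 56.6 to 65.1 and RV at 12.8 to 16.8. None of these ranges overlapped, and the whole-heart group differed from each ventricle, by -0.81 (adjusted p = 0.000490) over LV and 0.81 (adjusted p = 0.000397) over RV for Tbx5, by -1.51 and 0.81 for Gja5, and by -1.33 and 0.73 for Hand1, with adjusted p of 0.00405 or less. Tbx5 and Hand1 were chosen for this display after their values were seen.

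**Figure D2:**
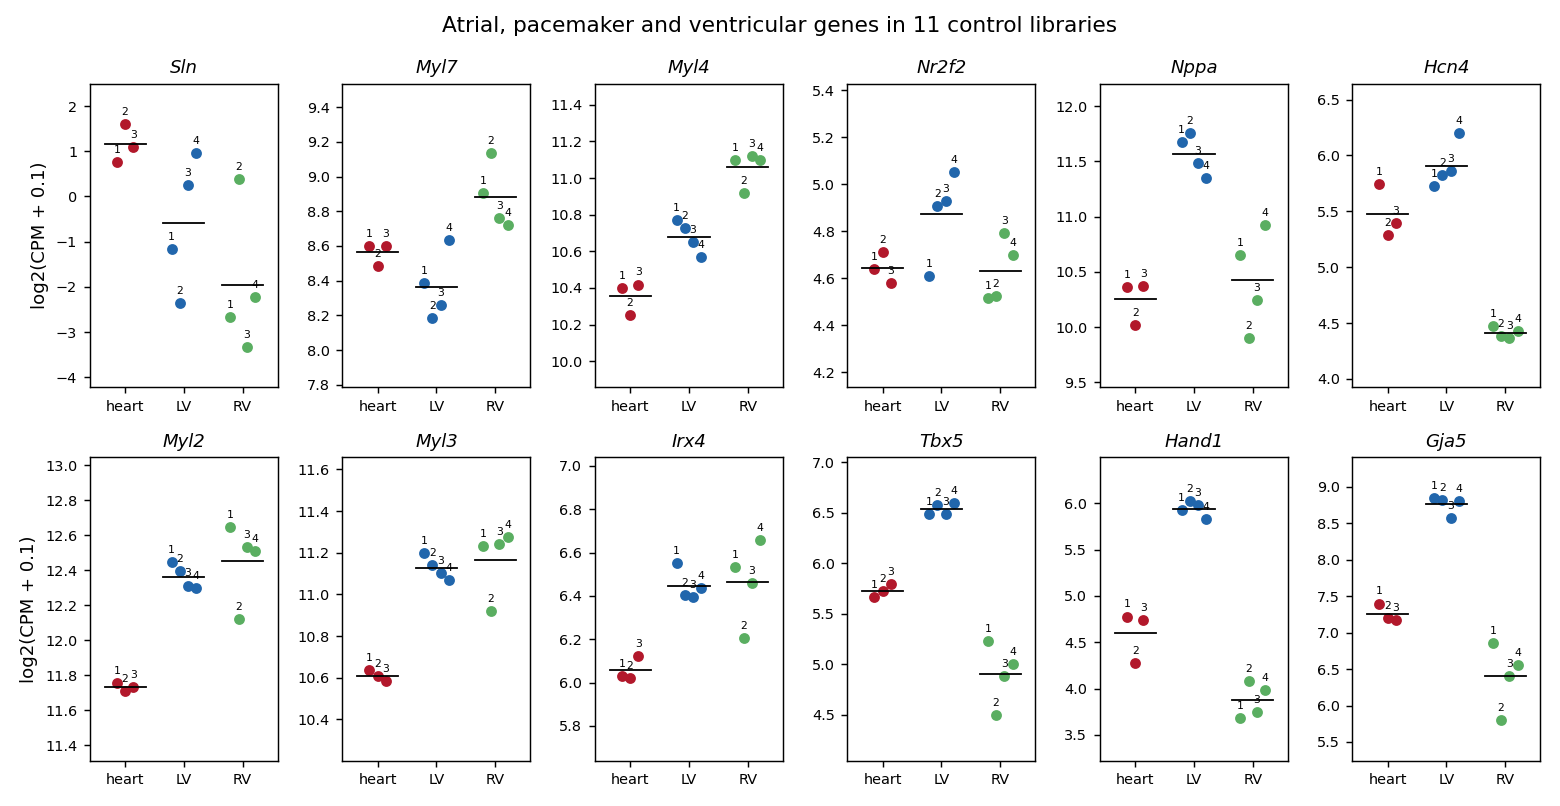
Atrial, pacemaker and ventricular genes in control whole hearts (n = 3), left ventricles (n = 4) and right ventricles (n = 4), as log2(CPM + 0.1) with bars at the group mean and the replicate number above each point. Myl2, Myl3, Irx4 and Myl4 are lower in all whole hearts than in any ventricle, Tbx5, Hand1 and Gja5 lie between LV and RV, and Sln is low throughout, at 0 to 2.93 CPM.

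Pacemaker and sinus node genes were nearly all higher in whole hearts. Of 16 members 14 were higher and the other 2 were not called, with a median of 0.73. Only 2 were above both ventricles separately, and 8 were without whole heart 1 and right ventricle 2. The count was 10 after correction for GC content and length. Tbx3, the T-box repressor of the conduction system (chr5:119670669-119684724), was at 18.3, 15.8 and 16.1 CPM in whole hearts, at 4.07 to 10.7 in LV and at 0.285 to 6.56 in RV. Each whole heart lay above each ventricle. The difference was 1.89 (SE 0.464, adjusted p = 0.00769), and 1.02 over LV alone (adjusted p = 0.181). Over the mean of the ventricles it was 2.45 (adjusted p = 7.52e-05) without whole heart 1 and right ventricle 2.

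Shox2, a homeobox gene needed for the sinus node, was at 3.79, 6.11 and 5.37 CPM in whole hearts and at 0.143 to 2.84 in 7 ventricles. Left ventricle 4, at 7.23 CPM, was above every whole heart. The difference was 2.30 (SE 0.581, adjusted p = 0.00892) and rested on the RV, at 3.78 (adjusted p = 0.00316) against 0.83 over LV (adjusted p = 0.365). Vsnl1, a calcium sensor gene chosen after its values were seen, had the same shape, at 4.09, 4.91 and 3.33 CPM with left ventricle 4 at 5.45 and the other 7 ventricles at 0.0952 to 1.35. Its difference was 2.88 (adjusted p = 0.00963).

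Hcn4, the main pacemaker channel, was at 53.6, 39.0 and 42.0 CPM in whole hearts, 52.8 to 73.5 in LV and 20.6 to 22.1 in RV. Whole heart 1 lay in the LV range and the other whole hearts between LV and RV. The difference was 0.33 (SE 0.103, adjusted p = 0.0272) over their mean, -0.43 over LV and 1.08 over RV, and corrected for GC content and length the first was 0.22 (adjusted p = 0.0998). It was 0.18 (adjusted p = 0.144) without whole heart 1 and right ventricle 2, and the adjusted p was 0.148 without whole heart 1 alone. The secreted matrix protein gene Smoc2 was at 40.7, 36.5 and 36.8 CPM against 21.3 to 29.3, without overlap, and 0.67 higher (adjusted p = 6.38e-05).

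The atrioventricular canal list shares Tbx3, Hcn4, Cacna1g, Gjd3 and Gjc1 with the pacemaker list. Of its 12 genes 9 were higher and the others not called, with a median of 0.93. Above both ventricles separately there were 0, and 6 without whole heart 1 and right ventricle 2. After correction 7 were higher, and 4 were without whole heart 1 and likewise without whole heart 3. Tbx2, the canal's other T-box repressor, was at 12.6, 12 and 15.5 CPM against 3.76 to 11.1 (median 6.59). No ventricle reached the whole hearts, and the difference was 0.91 (SE 0.278, adjusted p = 0.0239, or 0.0973 without whole heart 3). Bmp2, the canal ligand that starts cushion formation, was at 20.3, 17.5 and 20.0 CPM against 1.86 to 9.99 in 7 ventricles and 18.4 in right ventricle 2.

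Bmp2 and Tbx2 were chosen after their values were seen. The Bmp2 difference was 1.52 (SE 0.515, adjusted p = 0.0373) and missed the threshold on leaving out any of 9 libraries, with adjusted p up to 0.0930. Without whole heart 1 and right ventricle 2 it was 2.20 (adjusted p = 3.02e-05). Rspo3, an R-spondin that amplifies Wnt signals, was at 23.6, 19.3 and 20.2 CPM against 1.67 to 17.1, the highest again right ventricle 2. It differed by 1.63 (SE 0.491, adjusted p = 0.0217, and up to 0.0534 without whole heart 1 or 3). The T-type calcium channel gene Cacna1g differed by 1.22 (adjusted p = 0.0160, or 0.0634 without whole heart 2), at 33.4 to 43.7 CPM against 6.38 to 31.6. The low-conductance connexin gene Gjd3 was at 1.57 CPM in whole heart 1 but 0.351 and 0.284 in whole hearts 2 and 3, inside the ventricle range of 0 to 0.594. Its difference of 2.14 (adjusted p = 0.0239) was 0.91 (adjusted p = 0.246) without whole heart 1 and right ventricle 2, and its adjusted p was 0.209 without whole heart 1 alone.

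In the list for the His bundle and Purkinje fibres, 1 of 7 tested members was higher and 2 were lower. Leaving out single libraries gave up to 4 lower (without right ventricle 2), 1 lower without any of 8 other libraries, and no lower call without whole heart 2. The helix-loop-helix inhibitor gene Id2 was at 86.9, 85.6 and 92.2 CPM against 53.7 to 59.8 in 7 ventricles and 97.3 in right ventricle 2, a difference of 0.53 (adjusted p = 0.00652).

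The venous pole, where the great veins enter the atria, had 9 tested genes with 4 higher. Osr1, a transcription factor of the dorsal mesenchyme behind the atria, was at 9.53, 9.17 and 7.13 CPM against 1.24 to 4.41 (median 2.49). All whole hearts were above all ventricles, by 1.69 (SE 0.291, adjusted p = 0.000924).

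Of 17 smooth muscle and arterial genes 10 were higher and 4 lower, with a median of 0.57 and 7 above both ventricles. Corrected for GC content and length, 9 were higher and 2 lower. Eln, the elastic fibre protein of the great arteries (chr5:134702593-134747323), was at 1171, 650 and 715 CPM in whole hearts, 33.5 to 57.1 in LV, and 23.7, 719, 32.3 and 36.9 in right ventricles 1 to 4. Right ventricle 2 thus lay among the whole hearts and the other 7 ventricles far below. The difference was 3.15 (SE 0.779, adjusted p = 0.00806), and 4.2 (adjusted p = 2.59e-08) without whole heart 1 and right ventricle 2.

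Fbln5, which helps assemble elastic fibres and was chosen after its values were seen, repeated this, at 189, 124 and 149 CPM, 137 in right ventricle 2 and 7.27 to 10.6 in the other ventricles. Its difference was 2.95 (adjusted p = 0.00385). Rgs5, a regulator of G protein signalling in mural cells (chr1:169655501-169695813), was at 55.6, 46.4 and 44.4 CPM, 18.6 in right ventricle 2 and 1.25 to 2.87 in the other ventricles. Right ventricle 2 was here between the others and the whole hearts. With 3.82 (SE 0.483, adjusted p = 0.000127) Rgs5 had the largest rise among abundant genes whose libraries did not overlap. That rise was 4.47 (adjusted p = 4.52e-10) without whole heart 1 and right ventricle 2.

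Myh11, the myosin of mature smooth muscle, was low and did not follow right ventricle 2: it stood at 4.79, 5.63 and 2.34 CPM in whole hearts and 0.431 to 1.01 in ventricles, with right ventricle 2 at 0.702. The difference was 2.80 (SE 0.260, adjusted p = 1.61e-05). Smooth muscle actin (Acta2), which embryonic cardiomyocytes also make, was at 712, 690 and 704 CPM, between LV at 523 to 573 and RV at 1395 to 1738. It was 0.36 higher than in LV (adjusted p = 0.00236) and fell by 1.15 relative to RV (adjusted p = 1.09e-06). Desmin (Des), the intermediate filament of striated muscle, was lower by -0.51 (adjusted p = 0.000136).

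In the outflow tract list 10 of 14 genes were tested and 6 were higher, with a median of 0.79. There were 2 without whole heart 3 and 7 without whole heart 1 and right ventricle 2. Above both ventricles separately there were 2, and 5 without whole heart 1 and right ventricle 2. Of the 6 higher genes, only Sema3c is on no other list. Isl1 is also on the pacemaker and venous pole lists, Gata6 on the venous pole list, and Bmp4, Rspo3 and Tbx2 on the canal list. Isl1, the LIM homeobox gene of second heart field and sinus node cells (chr13:116298281-116309689), was at 2.69, 3.98 and 5.02 CPM in whole hearts, 0 to 0.0694 in LV, and 0.113, 4.46, 0.285 and 0.281 in right ventricles 1 to 4. The LV libraries were almost empty of it and right ventricle 2 matched the whole hearts. The difference was 4.29 (SE 0.897, adjusted p = 0.00309), and 5.74 (adjusted p = 2.31e-07) without whole heart 1 and right ventricle 2; the fitted size depends on the prior count, since 2 LV libraries had no read.

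Sema3c, a guidance signal that draws neural crest cells into the outflow tract, was at 38, 43.8 and 49.1 CPM. It was at 8.60 to 11.1 in LV, at 22.8 to 23.9 in 3 RV libraries and at 43.8 in right ventricle 2. LV libraries were lowest, and apart from right ventricle 2 the RV libraries lay between them and the whole hearts. The difference was 1.41 (SE 0.169, adjusted p = 9.16e-05), 2.20 over LV and 0.61 over RV (adjusted p = 0.0298). Over the mean of the ventricles it was 1.65 (adjusted p = 4.46e-08) without whole heart 1 and right ventricle 2. Bmp4, an outflow and canal ligand, was at 26.1, 23.9 and 28.7 CPM against 9.86 to 16.1 in 7 ventricles and 29.8 in right ventricle 2, a difference of 0.94 (adjusted p = 0.0155, or 0.0593 without whole heart 3). The zinc finger gene Gata6 differed by 0.26 (adjusted p = 0.0135, or 0.0715 without whole heart 3).

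Hox genes mark the posterior second heart field and the neural crest of the caudal hindbrain. There were 39 in the files, and 8 passed the expression filter. Of these 7 were higher, with a median of 1.85, and 5 were above both ventricles. A gene that passed the filter through the whole hearts alone had to be high there, so the count is a description. Hoxb3 was at 1.95, 3.01 and 2.52 CPM against 0.333 to 1.35 and differed by 1.92 (adjusted p = 0.00153). Hoxd3, chosen after its values were seen, was at 3.19, 1.31 and 1.61 CPM, at 3.91 in right ventricle 2, at 0.113 in right ventricle 1, and had no read in the other 6 ventricles.

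**Figure D3:**
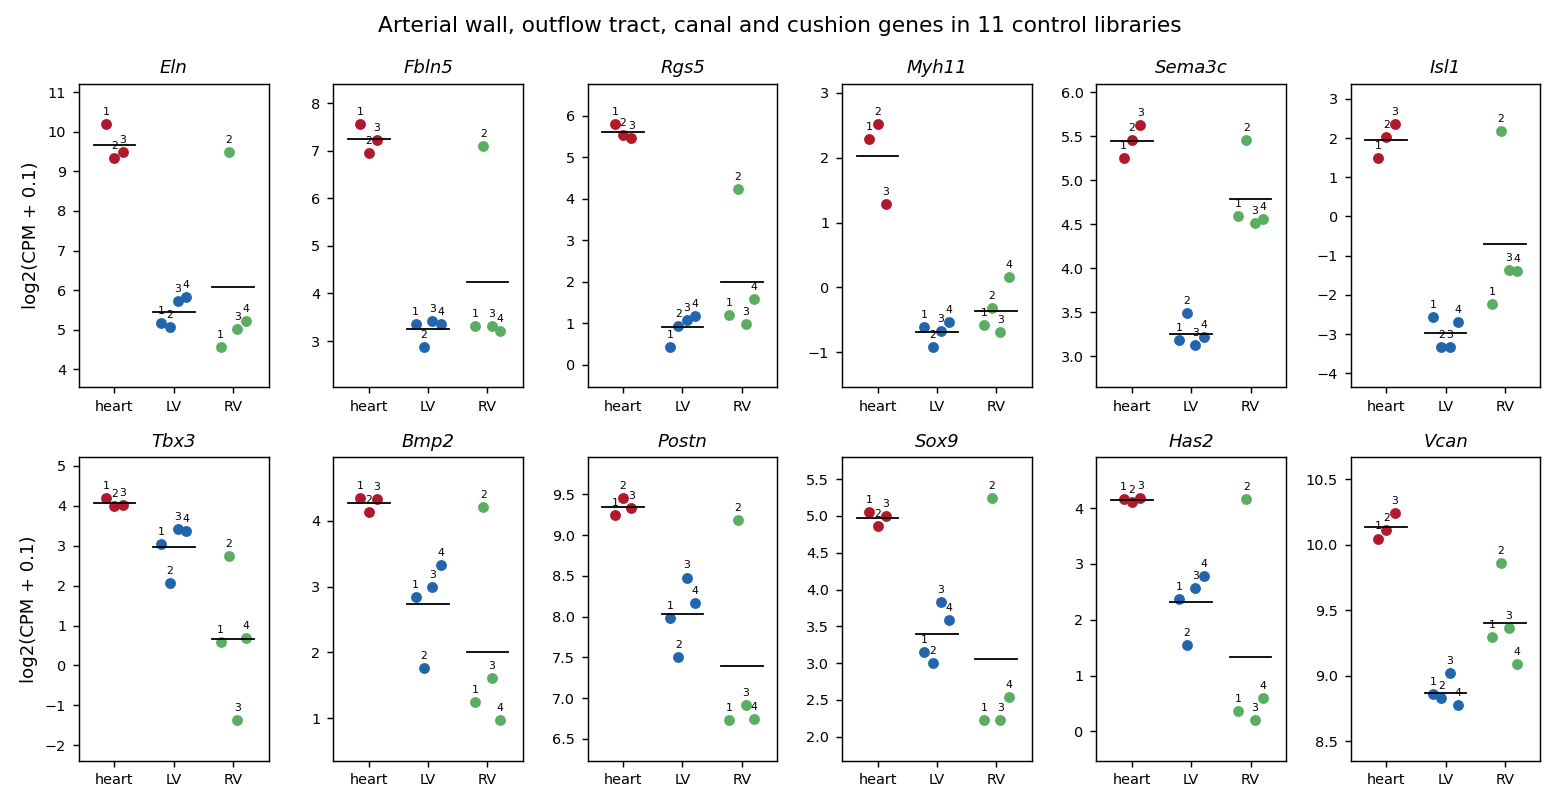
Arterial wall, outflow tract, canal and cushion genes in the 11 control libraries, as log2(CPM + 0.1) with bars at the group mean and the replicate number above each point. Right ventricle 2 stands with the whole hearts for Eln (719 CPM), Isl1 (4.46), Sox9 (37.8) and Has2 (17.7), and with the other right ventricles for Myh11 (0.702).

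The cushion and valve mesenchyme list had 28 genes, all tested. Of these 15 were higher and the others not called, with a median of 1.02. The count ran from 6 (without whole heart 2) to 24 (without right ventricle 2) as single libraries were left out, being 8 or 9 without whole heart 1, whole heart 3, left ventricle 1 or 2, or right ventricle 1 or 4. It was 24 without whole heart 1 and right ventricle 2, and 11 after correction for GC content and length. Only 2 were above both ventricles separately, and 19 were without these 2 libraries.

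The matrix protein gene Postn was at 606, 703 and 643 CPM in whole hearts, at 181 to 357 in LV, and at 106, 582, 121 and 107 in right ventricles 1 to 4. No ventricle reached the whole hearts, but right ventricle 2 came near. The difference was 1.39 (SE 0.434, adjusted p = 0.0260, up to 0.0738 without whole heart 2 or 3), and 1.97 (adjusted p = 2.89e-06) without whole heart 1 and right ventricle 2. Versican (Vcan), the proteoglycan of cardiac jelly, was at 1058, 1104 and 1212 CPM against 438 to 931 and differed by 0.98 (SE 0.120, adjusted p = 0.000107). Pdgfra, the receptor of mesenchymal cells, was at 166, 150 and 165 CPM, 143 in right ventricle 2 and 42.3 to 95.1 in the others. Its difference was 1.07 (adjusted p = 0.0108), and 1.34 (adjusted p = 1.81e-06) without whole heart 1 and right ventricle 2.

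Sox9, the transcription factor of cushion and cartilage progenitors, was at 33.0, 29.1 and 31.9 CPM in whole hearts, 4.57 to 14.1 in 7 ventricles and 37.8 in right ventricle 2, above every whole heart. Its difference was 1.39 (SE 0.496, adjusted p = 0.0454), and 2.07 (adjusted p = 1.26e-06) without whole heart 1 and right ventricle 2. The call was lost on leaving out any of 10 libraries, all but right ventricle 2, with adjusted p up to 0.104. Twist1, another mesenchymal regulator, was at 13.4, 15.0 and 17.4 CPM, 19.3 in right ventricle 2 and 1.90 to 10.4 elsewhere. It differed by 1.19 (adjusted p = 0.103) and, without whole heart 1 and right ventricle 2, by 1.98 (adjusted p = 0.000239).

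Has2, which makes the hyaluronan of cardiac jelly, was at 17.8, 17.2 and 18.0 CPM, with right ventricle 2 at 17.7 and the others at 1.05 to 6.75. Tenascin C (Tnc) was at 158, 157 and 157 CPM, with right ventricle 2 at 232 and the others at 19.5 to 47.1. Both whole-heart groups were tight, and right ventricle 2 stood inside or above them. The differences were 1.75 (adjusted p = 0.0428) and 1.63 (adjusted p = 0.0460), each lost without any of 10 libraries, with adjusted p up to 0.0981 and 0.0991. Without whole heart 1 and right ventricle 2 they were 2.83 (adjusted p = 1.21e-06) and 2.48 (adjusted p = 1.81e-06). Has2 and Tnc were chosen after their values were seen. Sox9, Has2 and Tnc missed the threshold once corrected for GC content and length, at 1.28 (adjusted p = 0.0719), 1.52 (adjusted p = 0.0849) and 1.48 (adjusted p = 0.0719).

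Type II collagen (Col2a1), found in cushion mesenchyme as well as cartilage, was at 96.6, 102 and 103 CPM in whole hearts, 13.7 to 21.3 in LV and 80.7 to 215 in RV. Whole hearts were above LV by 2.6 (adjusted p = 5.68e-05) and within the RV range, at -0.35 (adjusted p = 0.318). The valve endocardium list gave 4 higher of 12, with a median of 0.26. There were 8 without right ventricle 2, and 2 on leaving out any other library but whole heart 1 or left ventricle 1. Heyl, a Notch target, was at 30.1, 20.9 and 19.9 CPM against 9.84 to 16.8, without overlap, and 0.92 higher (SE 0.163, adjusted p = 0.00109). Nfatc1, the endocardial regulator of valve growth, was at 64.7, 57.5 and 62.2 CPM against 34.1 to 59.4 and 0.39 higher (adjusted p = 0.0227, or up to 0.0680 without whole heart 1 or 3).

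Right ventricle 2 was the ventricle library farthest from its group. It held 102 genes at 1 CPM or more that were at least 4-fold above every other control RV, while the same count for each of the other 7 ventricles, within its own group, was 4 to 10. Of the 99 such genes that were tested without it, 95 (96%) were higher in whole hearts than in the remaining ventricles, against 20.1% of all genes. The list was chosen on these values, so the share is a description. The mesenchymal genes Cthrc1, Lum and Meox1, chosen after their values were seen, were at 32.0, 98.6 and 53.6 CPM in right ventricle 2. In whole hearts they were at 17.6 to 23.2, 81.5 to 92.8 and 35.7 to 50.6, and in the other 3 RV at 0.381 to 0.956, 9.42 to 12.4 and 3.33 to 4.22. Muscle genes differed less: in it Myl2 was 4451 CPM against 5826 to 6419 in the other RV, and Irx4 73.7 against 87.8 to 101. Left ventricle 4 had 8 such genes, 5 of them higher in whole hearts.

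**Figure D4:**
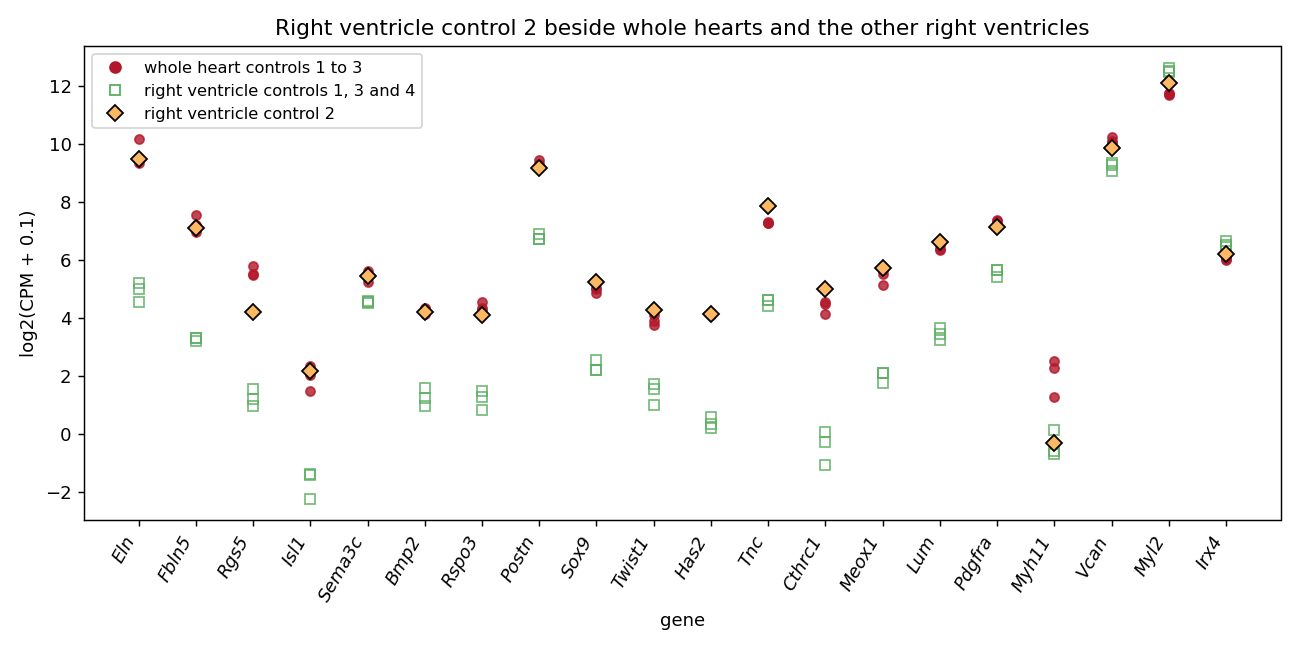
Right ventricle 2 beside the 3 control whole hearts and the other 3 control right ventricles for 20 genes, as log2(CPM + 0.1). It lies with the whole hearts for most outflow and cushion genes, below them for Rgs5 (18.6 CPM against 44.4 to 55.6), and with the right ventricles for Myh11.

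Signalling genes were mixed in direction. Among 12 BMP ligands and antagonists 4 were higher and 2 lower. There were 7 higher without right ventricle 2, 1 higher without whole heart 3, and the lower calls were lost without whole heart 2. Bmp7, a myocardial ligand, differed by -0.31 (adjusted p = 0.00874, or 0.0509 without whole heart 2), at 140 to 160 CPM against 146 to 236. In the hedgehog pathway 5 of 9 tested genes were higher and 1 lower; the lower call was lost without whole heart 1, left ventricle 2 or 4, or right ventricle 1, 3 or 4. The ligands Shh and Ihh did not pass the filter. The co-receptor gene Cdon was at 120, 118 and 115 CPM against 71.8 to 100 and differed by 0.54 (SE 0.0729, adjusted p = 0.000210). The effector Gli2 was at 17.8, 15.3 and 16.9 CPM against 6.94 to 15.6, a difference of 0.82 (adjusted p = 0.00409). In the retinoic acid pathway 2 of 10 were higher and 2 lower, among them the binding protein Crabp2 at 1.31 (adjusted p = 0.00771). Leaving out single libraries gave 1 to 4 higher and 1 or 2 lower in that pathway.

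Markers of other cells were checked for what the dissections could hold. Of 15 tested epicardial genes 2 were higher and 3 lower, with a median of -0.03. Without whole heart 3 there was 1 in each direction, and 1 was higher without left ventricle 1 or right ventricle 4. Wt1 was at 26 to 30.6 CPM against 20.9 to 31.0 (-0.02, adjusted p = 0.888), while the mucin Muc16 was at 23.6, 24.5 and 23.5 against 9.57 to 14.3 (0.92, adjusted p = 1.82e-05) and Krt19 at 35.8 to 38.1 against 39.1 to 64.8 (-0.60, adjusted p = 0.00134). Of 14 endothelial genes 3 were higher and 7 lower. The lower count was 4 without whole heart 1 and 3 without whole heart 3. Plvap, the diaphragm protein of capillaries and endocardium, was at 70.6 to 94.4 CPM against 113 to 147 (-0.66, adjusted p = 0.000228). Of 13 macrophage genes, Cd68 was the only call, at -0.48 (adjusted p = 0.00612) with all 11 libraries, and corrected for GC content and length it was -0.26 (adjusted p = 0.107).

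Neural crest, Schwann and neuronal genes gave 4 higher and 2 lower of 12 tested. Only 2 were higher without whole heart 3, left ventricle 2 or 3, or right ventricle 1, 3 or 4. The neuronal gene Stmn2 was at 2.1, 2.6 and 3.1 CPM against 0.238 to 1.55 (1.78, adjusted p = 0.00404), the endothelin receptor Ednrb at 124 to 156 against 150 to 229 (-0.57, adjusted p = 0.00122), and the crest marker Sox10 did not pass the filter. Of the lists for tissue next to the heart, the filter left 1 of 10 lung and foregut, 2 of 9 pharyngeal, 2 of 9 skeletal muscle and 2 of 7 liver genes. The thymic chemokine gene Ccl25 was at 12.3, 9.0 and 8.84 CPM against 4.84 to 6.60 (0.84, adjusted p = 0.000248). Summed over its whole list, TPM was 135 to 160 in whole hearts and 127 to 147 in ventricles for neural crest and neurons. It was 0.68 to 0.92 against 0.411 to 3.41 for lung and foregut, and 11.5 to 17.9 against 6.11 to 9.83 for pharynx. On log2(TPM + 1) the median of all genes was 0.27 higher in whole hearts, so small differences in these sums cannot be read. Ednrb was a large part of the crest sum, averaging 56.8 TPM in whole hearts, 65.0 in LV and 55.3 in RV. The mean of Sox10 was 0.191 TPM in whole hearts. The part of such cells in the results above was not tested.

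The largest differences of all were partly in genes whose reads are hard to assign. Among called genes averaging 2 or more in log2 CPM with whole hearts and ventricles apart, Pcdhgc4 was at 7.39, 7.31 and 7.23 CPM in whole hearts and 51.5 to 68.7 in ventricles (-3.11, adjusted p = 9.46e-10). It shares its last exons with the other gamma protocadherins. Zbed6, which is nested in an intron of Zc3h11a, was at 86.1, 73.9 and 82.1 CPM against 7.01 to 20.7 (2.73, adjusted p = 7.15e-06). The olfactory receptor gene Olfr77 was at 0.0998, 0.553 and 0.851 CPM against 6.66 to 9.55 (-3.92, adjusted p = 2.10e-05). The mitochondrial gene mt-Atp8, which overlaps mt-Atp6, was at 124, 338 and 93.3 CPM against 806 to 1125 (-2.37, adjusted p = 0.000226). Values for such genes are uncertain where reads were split between overlapping transcripts. Among the others, the neurotrophin receptor gene Ntrk3 was at 11.7, 12.1 and 9.93 CPM against 1.12 to 6.26 (2.40, adjusted p = 0.000675), and the glypican gene Gpc6 at 28.8, 22.6 and 23.0 against 4.02 to 15.0 (1.93, adjusted p = 0.000325).

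Differences moved with transcript length and base composition over the whole table. The median difference was -0.17 in the tertile of genes with the shortest transcripts, -0.01 in the middle tertile and 0.13 in the longest. It was 0.14, -0.01 and -0.14 from the lowest to the highest GC content. A smooth correction for both was fitted to these same libraries, so tissue differences that follow length or GC content are taken out with it. With this correction the medians were 0.02, -0.01 and -0.03 by length. The counts were then 2036 higher (12%) and 2325 lower (13.7%). Cytosolic ribosomal protein genes, which are short, were lower in 74 of 77 cases; corrected, 27 were lower and 14 higher. The 13 mitochondrially encoded genes were lower with and without the correction. What part length and GC content have in single results was not tested beyond the corrected values given. With counts thinned to the smallest library, 157 single-gene results were classed as unchanged, 3 as stronger and 7 as weaker. Of the list counts, 64 were unchanged and 6 moved. Thinning evens only the number of reads, and other differences between the library sets were not tested.

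**Figure D5:**
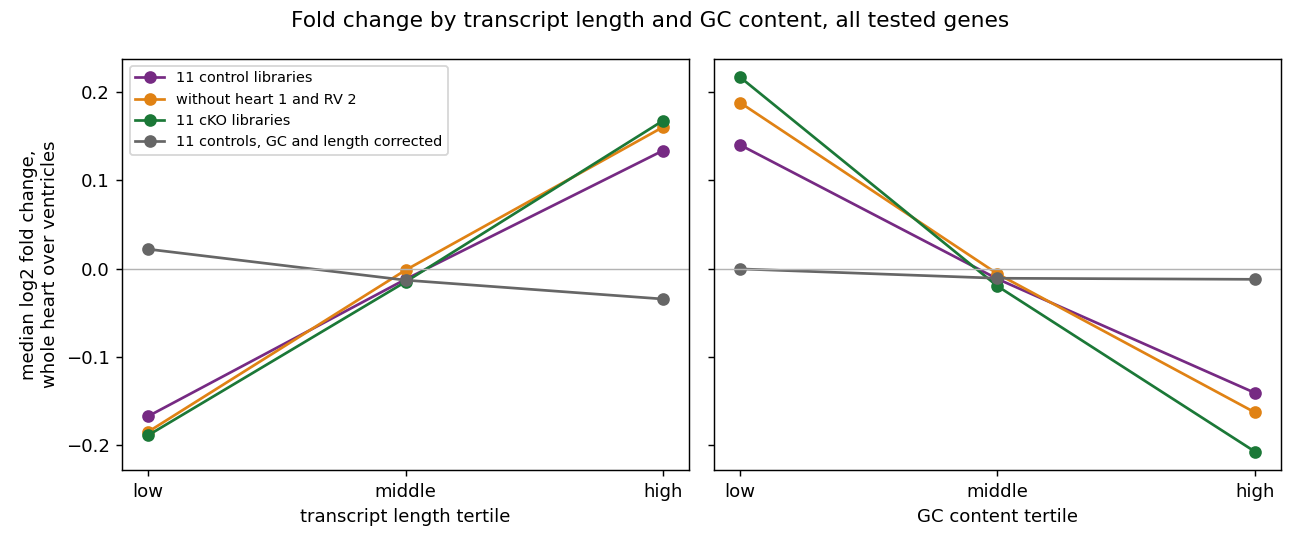
Median log2 fold change of whole heart over ventricles by tertile of transcript length (left) and GC content (right) over all tested genes. The medians rise with length and fall with GC content in controls and in cKO libraries, from -0.17 to 0.13 and from 0.14 to -0.14 in the 11 controls, and lie between -0.03 and 0.02 after correction.

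The cKO libraries gave the same comparison in different samples: 3 whole hearts, 4 LV and 4 RV, with the same depth difference between tissues. Of 16733 genes tested there, 4860 (29%) were higher and 5045 (30.2%) lower. Of the 3006 genes higher in control whole hearts 2662 were also higher in cKO and 2 were lower; of the 3091 lower, 2840 were also lower and 1 was higher. In the cushion list 25 of 28 were higher and 1 lower, in the pacemaker list 14 of 15 higher, in the outflow list 7 of 10 higher and 1 lower, and all 8 Hox genes higher. Eln differed by 4.32 (adjusted p = 2.74e-08), Isl1 by 6.40 (adjusted p = 6.39e-08), Rgs5 by 6.58 (adjusted p = 4.01e-10), Sox9 by 2.06 (adjusted p = 2.81e-07) and Sln by 2.46 (adjusted p = 0.000541). Myl7 was lower by -0.32 (adjusted p = 0.00175), Myl2 by -0.70 (adjusted p = 1.91e-08) and Nppa by -0.99 (adjusted p = 2.03e-05). These values come from another genotype, and the difference between genotypes was not tested.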

How the data were processed

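RNA from 3 control whole hearts, 4 LV and 4 RV (and 11 cKO libraries) at E13.5 was made into stranded mRNA libraries for Illumina sequencing, per the labels' protocols. The authors deposited estimated counts and TPM per transcript from Salmon 1.2.1 with GRCm38.p6 (mm10), per the submitters' processing notes, which also name DESeq2 1.22.2. Of 140658 transcripts per library 140137 matched GENCODE M21 and were summed to 54356 genes. Estimated counts were rounded, filtered with filterByExpr, scaled by TMM and tested with edgeR 4.0.16 (quasi-likelihood, Benjamini-Hochberg), with 1 model over 3 control groups; limma 3.58.1 and DESeq2 1.42.0 under R 4.3.3 gave alternatives, and the correction for GC content and length (mgcv 1.9.3) was added after seeing the data. The 2 library sets differ in depth, which precision follows; intervals cover spread between libraries only. TPM was used to compare levels between genes, for list sums and in alternatives. Whether same-numbered libraries share a heart could not be decided, and no block was fitted in the reported values. On simulated data for this comparison (16743 genes) the test called 85% of genes changed by 1 and 56% of those changed by 0.5 on the log2 scale, and 0.0423% of unchanged genes. The changed genes averaged at least 1 CPM, and LV and RV were given the same mean. No length or GC trend and no outlying library was simulated, so these rates need not hold for the reported results.

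The gene lists and members were chosen with earlier results of these data known. The rule for naming genes took a set of markers, the 4 members with the lowest p from every list, and, for each direction, the 10 protein-coding genes with the greatest fold change that were called, averaged 2 or more in log2 CPM and separated whole hearts from ventricles. Fbln5, Bmp2, Tbx2, Has2, Tnc, Cthrc1, Lum, Meox1, Tbx5, Hand1, Vsnl1, Nr2f1, Dkk3 and Hoxd3 were added after their values were seen. A few genes chosen this way are not reported here. Promoter sequences are from RefSeq (GRCm38.p6).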

Additional observations from a re-analysis of the deposited data

Results flagged for a closer look

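A library was marked where it stood apart from the other 3 of its group by Dixon's ratio of its gap to the group's range, at the 95% level. Over the 78 genes examined, 36 of 155 gene and group pairs were marked. The genes were taken from those named in the text, some of them chosen after their values were seen. The count is therefore a description and cannot be set against a chance rate. Right ventricle 2 accounted for 31 of them.

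Among genes of the outflow tract and arterial wall, right ventricle 2 was the highest control RV, in CPM, at 4.46 for Isl1, 43.8 for Sema3c, 719 for Eln, 137 for Fbln5, 18.6 for Rgs5, 3.91 for Hoxd3 and 29.8 for Bmp4. Among canal and cushion genes it was highest at 18.4 for Bmp2, 17.1 for Rspo3, 582 for Postn, 37.8 for Sox9, 19.3 for Twist1, 17.7 for Has2, 232 for Tnc, 32.0 for Cthrc1, 53.6 for Meox1, 98.6 for Lum and 143 for Pdgfra. It was also highest at 1.2 for Sln, 113 for Dkk3, 25.7 for Smoc2, 97.3 for Id2, 1.55 for Stmn2, 100 for Cdon, 15.6 for Gli2, 6.26 for Ntrk3 and 15.0 for Gpc6. It was the lowest control RV for Myl4 (1938), Myl3 (1938), Tnni1 (1835) and Pcdhgc4 (51.5).

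Left ventricle 4 was the highest control LV for Bmp4 (16.1). Left ventricle 2 was the lowest for Rspo3 (4.31), Cthrc1 (2.63), Fbln5 (7.27) and Gli2 (6.94). What these libraries held besides ventricle was not tested.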

How the results depend on the processing

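Depth, library set and tissue cannot be told apart here, whole heart 1 detects fewer genes, and the 3 whole hearts limit precision. Without whole heart 1 and right ventricle 2 the count above both ventricles was 2516 against 1624, and the difference in the share of mitochondrial reads was -1.15 percentage points with a 2-sided exact permutation p of 0.05556, the smallest that 2 against 7 libraries allow. Leaving out each library in turn gave 2483 to 3410 genes higher and 2415 to 3510 lower over the mean of the ventricles, 1300 to 2052 above both and 1366 to 2038 below both.

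Scaling by library totals gave 1894 genes lower over the mean of the ventricles, 4433 higher and 1735 lower over RV, and 2478 above and 1031 below both. The count above both was 2577 with voom and quality weights and 2576 with length-scaled counts. Limma on log2(TPM + 1) shifted the median of all genes to 0.27. It gave 6837 higher and 1030 lower over the mean, 6027 and 1082 over LV, 6750 and 868 over RV, and 5427 above and 607 below both. With log2(TPM + 0.1) the median was 0.31, and the counts were 6786 and 1023, 5927 and 1080, 6722 and 878, and 5316 and 621. Requiring a log2 fold change over 1 besides the adjusted p left 626 and 201, 537 and 252, 602 and 211, and 312 and 156, as fewer genes can pass. Corrected for GC content and length, 857 genes were above and 1009 below both. The causes of the other shifts were not tested.

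Some genes changed sign. The median of all genes was 0.27 on log2(TPM + 1) and 0.31 on log2(TPM + 0.1), so a positive value under it still lies below the median gene. With log2(TPM + 1) the values were 0.36 for Nr2f2, 0.29 for Hey2, 0.048 for Gap43, 0.046 for Emcn, 0.028 for Pdpn, 0.21 for Gja1, 0.10 for Btg2, 0.88 for Pcna, 0.096 for Mcm7 and 0.079 for Hist1h2bc. With log2(TPM + 0.1) they were 0.37, 0.30, 0.049, 0.047, 0.030, 0.21, 0.11, 0.88, 0.097 and 0.083 in that order, and 0.35 for Tbx5. Length-scaled counts gave -0.064 for Notch1 and 0.53 for Pcna. The correction gave 0.41 for Myl7, -0.13 for Slc8a1, -0.040 for Klf6 and -0.020 for Mki67. Without whole heart 1 and right ventricle 2 as well it gave 0.53 for Myl7, -0.12 for Slc8a1, -0.022 for Klf6, 0.0074 for Ier2 and -0.020 for Mki67.

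With the replicate number as a block, 2411 genes were higher and 2664 lower over the mean of the ventricles, 1296 above and 1456 below both. Deviations of same-numbered libraries of different tissues had correlations of -0.11 to 0.089, and those of differently numbered libraries -0.15 to 0.097. These values cannot decide whether any libraries share a heart, and the numbers were not taken as pairs.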

Other observations

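Cell cycle genes were mostly lower in whole hearts by the test on counts: of 16 proliferation genes 9 were lower and 1 higher, with a median of -0.21. There were 2 higher without right ventricle 1, and corrected for GC content and length 7 were lower and 0 higher. Summed TPM of the list went the other way, at 1702 to 1879 in whole hearts and 1204 to 1438 in ventricles. On log2(TPM + 1) the median of all genes was 0.27 higher in whole hearts. The direction thus depends on the measure, and the cause was not tested. Aurkb, a mitotic kinase gene, was at 37.6, 42.9 and 42.7 CPM against 46.5 to 55.8 in ventricles, a difference of -0.29 (adjusted p = 0.00268), and -0.07 (adjusted p = 0.411) after correction for GC content and length. The proliferation antigen gene Mki67 was the higher one, at 548, 611 and 617 CPM against 419 to 501 (0.37, adjusted p = 0.000174), and -0.02 (adjusted p = 0.820) corrected. Connexin 43 (Gja1), the main gap junction protein of working myocardium, was at 361, 397 and 380 CPM against 457 to 662, without overlap, and fell by 0.61 (adjusted p = 0.000325), or 0.73 (adjusted p = 0.000218) corrected.

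Of 13 calcium handling genes 3 were higher and 2 lower. Corrected for GC content and length 1 was higher and 5 were lower, 1 was higher without whole heart 2 or 3, and 4 were lower without right ventricle 2. The calcium store protein gene Casq2 was at 186, 236 and 207 CPM against 243 to 333 (-0.48, adjusted p = 0.00172), with a corrected value of -0.50. The calcium release channel Ryr2 was at 461, 530 and 507 CPM against 318 to 450 (0.40, adjusted p = 0.000165), with a corrected value of 0.11 (adjusted p = 0.171). Adult beta-globin Hbb-bt was at 914, 920 and 650 CPM against 726 to 2458 (-0.70, adjusted p = 0.0400). That call was lost without any 1 of the whole hearts, left ventricle 1 or 4, or right ventricle 4, with adjusted p up to 0.163, and the corrected value was -0.35 (adjusted p = 0.274). Of 7 tested cartilage genes 2 were higher, and 1 on leaving out any library but left ventricle 3 or right ventricle 2. Col9a1, a fibril-associated collagen gene, was at 39.4, 34.3 and 38.8 CPM, at 46.3 in right ventricle 2 and at 0.238 to 7.42 in the other ventricles, with a difference of 2.30 (adjusted p = 0.0562) and of 4.41 (adjusted p = 6.84e-07) without whole heart 1 and right ventricle 2.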
